A study of Homo sapiens with 6 samples.

Results

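The 36 genes described here encode the enzymes that make cholesterol and fatty acids, the proteins that sense and regulate sterols, and a pair of sterol exporters. They were chosen by gene name and all 36 were found among the 58735 genes of the deposited table. RNA sequencing measured them in BxPC-3, by its label an established line of human pancreatic cancer, in 6 libraries. GSK3326595, a small-molecule inhibitor of the arginine methyltransferase PRMT5, had been given in 3 of these and the vehicle DMSO in the other 3. No transgene or further agent is labelled in either group, and neither the dose nor the time of treatment was stated. The series' design text speaks of a knockdown, whereas every library label names the inhibitor, and the library labels were followed. The comparison asks which of these transcripts differed when PRMT5 was inhibited. Values are FPKM, which divides each gene's reads by its length and by the size of the library. Levels can be compared between genes as far as the deposited lengths fit the transcripts present, which was not tested.

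Cholesterol is built from acetyl-CoA through mevalonate, squalene and lanosterol, and fatty acids from acetyl-CoA through malonyl-CoA. Transcription of both sets of enzymes is driven by the SREBP factors, encoded by SREBF1 and SREBF2, which SCAP escorts out of the endoplasmic reticulum when sterols are low and which INSIG1 and INSIG2 retain there when sterols are high. When sterols accumulate, the oxysterol-activated LXR receptors induce exporters such as ABCA1 and ABCG1, and also SREBF1. Many cancer cells keep both syntheses active to supply membranes.

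The promoters of several members are shown because motifs for the SREBP factors and their partner NF-Y can be read directly in them. The bases lie just before the RefSeq start on GRCh38.p14, 250 in each, 5′ to 3′ on the gene's strand. Capitals mark the sterol regulatory element core TCACNCCAC or its looser form CACNCCAC, which it contains, and the NF-Y box CCAAT, on either strand. HSD17B7 (chr1:162790452-162790701, plus strand) and TM7SF2 (chr11:65111622-65111871, plus strand) rose with the inhibitor, SREBF1 (chr17:17836987-17837236, minus strand) fell, and its paralog SREBF2 (chr22:41832855-41833104, plus strand) was not called. SREBF1 holds neither motif in this window, and nor do AACS, GGPS1 and FADS1, which rose. INSIG1, which also rose, holds the looser sterol element and the NF-Y box. Whether the motifs go with the direction of change was not tested.
HSD17B7: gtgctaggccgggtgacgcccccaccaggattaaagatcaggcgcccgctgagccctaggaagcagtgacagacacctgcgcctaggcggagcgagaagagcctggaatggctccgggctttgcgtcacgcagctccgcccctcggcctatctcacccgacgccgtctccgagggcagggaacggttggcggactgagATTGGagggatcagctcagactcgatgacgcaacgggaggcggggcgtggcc
TM7SF2: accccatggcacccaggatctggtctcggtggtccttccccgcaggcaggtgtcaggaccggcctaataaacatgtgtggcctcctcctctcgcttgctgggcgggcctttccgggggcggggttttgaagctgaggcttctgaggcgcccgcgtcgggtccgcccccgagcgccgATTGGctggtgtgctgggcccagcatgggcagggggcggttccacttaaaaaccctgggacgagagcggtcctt
SREBF1: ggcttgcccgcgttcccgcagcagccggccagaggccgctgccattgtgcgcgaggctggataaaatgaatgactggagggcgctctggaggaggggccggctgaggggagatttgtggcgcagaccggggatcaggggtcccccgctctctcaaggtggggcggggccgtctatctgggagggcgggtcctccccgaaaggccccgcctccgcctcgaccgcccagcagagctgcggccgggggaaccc
SREBF2: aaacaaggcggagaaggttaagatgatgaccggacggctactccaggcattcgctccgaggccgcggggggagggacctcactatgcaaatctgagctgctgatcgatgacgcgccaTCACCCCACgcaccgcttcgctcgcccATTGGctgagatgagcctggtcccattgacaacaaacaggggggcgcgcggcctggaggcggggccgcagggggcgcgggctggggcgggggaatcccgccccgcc

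Promoter entries were found for 31 members, all but ABCG1, ACAT2, FASN, FDFT1 and SQLE. The NF-Y box was in 18 of them (58.1%), against 33.04% of 27305 promoters of the same length, and in MVK and NSDHL it occurred 5 times each. The GC box GGGCGG was in 28 (90.3%), against 42.3% of all promoters. The strict sterol element core was in 1 member, SREBF2 (3.23%, against 0.875% of all promoters), at bases 133 to 125 before the start. The looser form was in 4 (12.9%, against 4.72%), namely SREBF2, INSIG1, SCD and ABCA1. These are matches of letters in a short window and were not tested as binding sites. The 27305 promoters were not limited to genes detected in these libraries, so the shares are not a comparison with other expressed genes.

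SREBF1 and SREBF2 also carry a microRNA each in an intron, miR-33b and miR-33a. Both are known to repress ABCA1, so their mature RefSeq sequences (chr17:17813897-17813916, minus strand, and chr22:41900949-41900969, plus strand) are shown with the seed, bases 2 to 8, in capitals. The seeds are the same.
hsa-miR-33b-5p: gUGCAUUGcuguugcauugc
hsa-miR-33a-5p: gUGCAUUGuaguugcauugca
Mature microRNAs were not measured in these libraries.

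The libraries held 14087260 to 15724750 reads recovered from the values. Inhibitor replicate 2 stood apart. Its log2 values correlated with those of the other inhibitor libraries at r = 0.904 and 0.906 across the 13578 genes tested, where replicates 1 and 3 correlated at r = 0.980. Mitochondrial transcripts took 11.3% of its reads, against 4.703% to 6.03% in the other 5 libraries. Calls and log2 fold changes are therefore given with and without it where a gene is described in full. The labelled ductal identity was met only in part, and whether the line is as labelled was not tested. Of 10 ductal and adenocarcinoma markers, KRT19, CEACAM6 and ESRP1 had 0 reads in every library, and EPCAM and CDH1 stayed under 0.496 FPKM. KRT7, KRT8, KRT18, MUC1 and SOX9 reached 1 FPKM. The list, mostly KRT7, KRT8 and KRT18, summed to 789.9 to 1042 FPKM with the inhibitor and 675 to 755 FPKM in DMSO. Its genes did not move alike. KRT8 averaged 361 FPKM with the inhibitor and 264 FPKM in DMSO, KRT18 364 and 255, and MUC1 48.3 and 21.8. KRT7 averaged 103 FPKM with the inhibitor and 163 FPKM in DMSO, and SOX9 2.27 and 3.67. Of 7 fibroblast and stellate cell markers COL1A2, LUM and PDGFRA were at 0 reads, and the list, mostly COL1A1 and PDGFRB, summed to 10.3 to 15.5 FPKM with the inhibitor and 5.09 to 5.68 FPKM in DMSO. The part of these differences in the results was not tested. The endothelial markers summed to 0.227 to 0.823 FPKM with the inhibitor and 1.09 to 1.46 FPKM in DMSO, and the leukocyte markers, with CD3E at 0 reads, to 0.0396 to 0.293 and 0.233 to 0.559 FPKM. Of 5 acinar and islet markers 4 were at 0 reads. PRMT5 itself stood at 13.4, 12.8 and 12.1 FPKM with the inhibitor and 23.2, 24.6 and 26.2 FPKM in DMSO (log2 fold change −0.90, SE 0.10, adjusted p = 0.00493 by limma). In such bulk samples a change in the share of cells and a change in RNA per cell cannot be told apart, and nothing states that the 6 libraries are separate cultures.

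With the inhibitor, 6 synthesis enzymes and INSIG1 were higher, with ratios of mean FPKM between 1.40 for INSIG1 and 3.03 for GGPS1, while SREBF1, ABCG1 and ABCA1 were lower, with ratios of 0.616, 0.414 and 0.462. Of the 35 members that could be tested, 7 rose at an adjusted p under 0.05, where 7.18% of all 13578 genes tested rose, and 3 fell, where 10.0% of all genes fell. The risers were AACS, GGPS1, SQLE, TM7SF2, HSD17B7, INSIG1 and FADS1, and those that fell were SREBF1, ABCA1 and ABCG1. TM7SF2 and ABCA1 passed the filter on low values only through the group in which they were higher, which fixes their direction; leaving them aside, 6 members rose and 2 fell. Under quantile normalization 10 members rose and 2 fell. No enzyme of either pathway fell: among the 27 enzymes tested, TM7SF2 included, 6 rose and 20 had a log2 fold change above 0. The median log2 fold change was 0.20 over the members and 0.25 over the enzymes, beside −0.05 over all genes tested, where 45.3% were above 0. Tests were limma's on log2(FPKM + 1), which understates the change of low genes, with Benjamini-Hochberg adjustment over all genes tested.

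Without inhibitor replicate 2, 13 members rose (17.5% of all genes did) and 3 fell (23.1% of all genes did). All 10 members called with every library were called again. Their sign could not turn, since the groups of each did not overlap. The 6 added were ACSS2, HMGCS1, IDI1, FDFT1, INSIG2 and ACACA. The median over the members was then 0.22. All 3 inhibitor libraries lay above all 3 DMSO libraries for 17 of the 35 members (19.2% of all genes tested) and below them for 3 (26.7% of all genes tested). TM7SF2 and ABCA1 are in these counts, although the filter had fixed their direction and the separation of their groups.

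**Figure D1:**
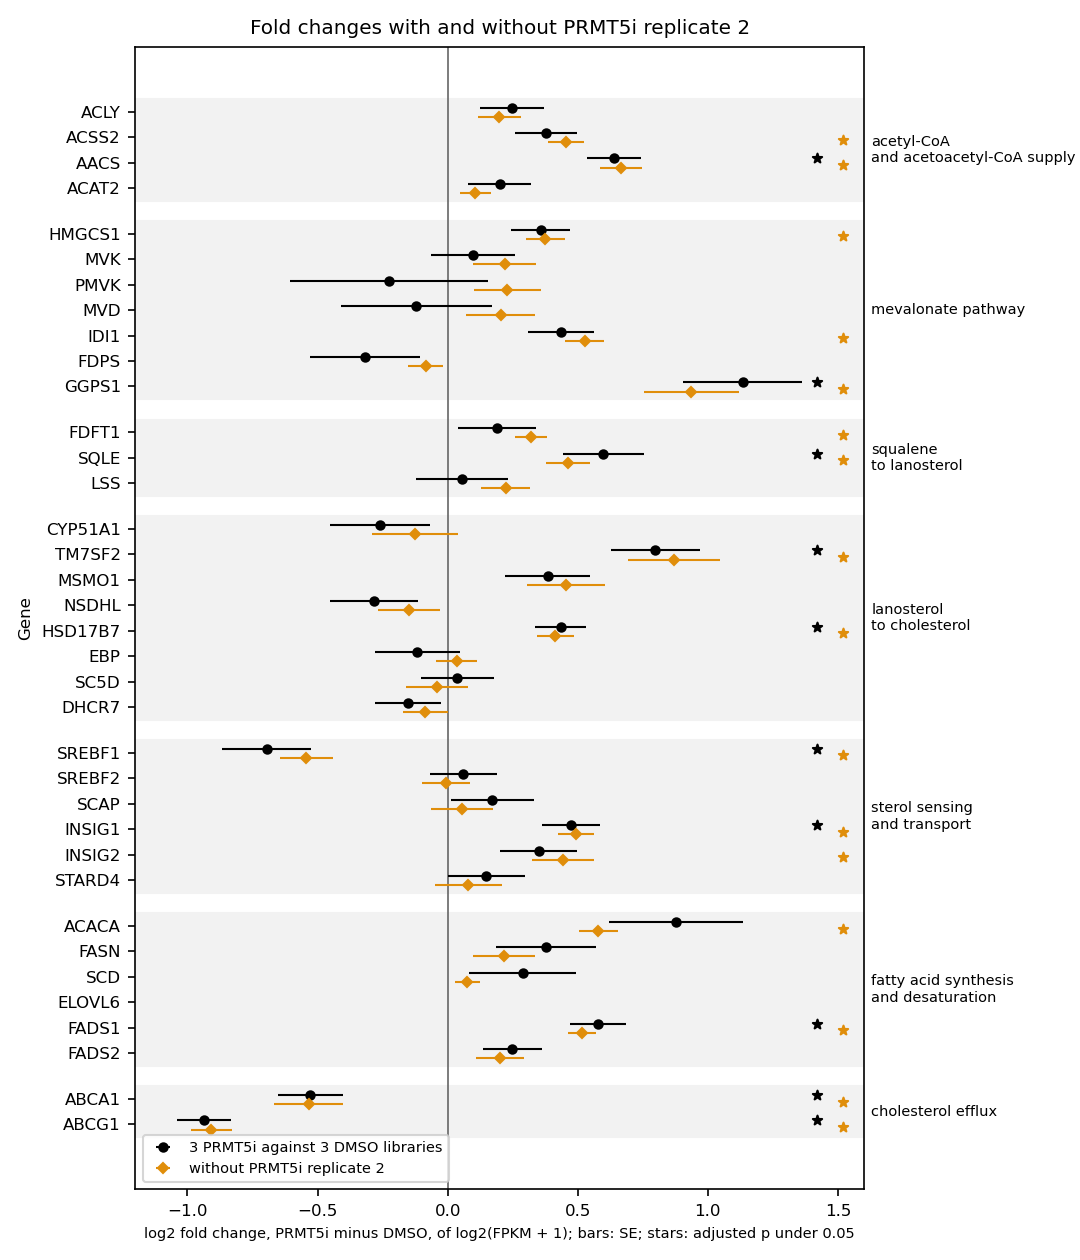
Log2 fold change of each member, inhibitor (PRMT5i) minus DMSO, on the log2(FPKM + 1) scale, grouped by pathway step; bars are standard errors and stars mark an adjusted p under 0.05. Black circles use all libraries and orange diamonds leave out inhibitor replicate 2; the 3 members called lower are SREBF1, ABCA1 and ABCG1.

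Levels spanned a wide range. In DMSO the most abundant member was SCD, the stearoyl-CoA desaturase that makes monounsaturated fatty acids, at 428 ± 6.53 FPKM (SD, n = 3), followed by FASN at 235 ± 29.1, FDFT1 at 127 ± 6.21, ACLY at 113 ± 8.38 and HMGCS1 at 93.3 ± 6.02 FPKM. FDFT1, at 124 to 135 FPKM, lay above ACLY, at 107 to 122 FPKM, in every DMSO library, whereas the ranges of SREBF2 (45.8 to 52.5 FPKM), FDPS (45.4 to 50.5 FPKM) and SREBF1 (45.3 to 53.4 FPKM) overlapped. At the low end stood GGPS1 at 1.54 ± 0.404, ABCA1 at 1.32 ± 0.0924, TM7SF2 at 0.748 ± 0.0857 and ELOVL6, an elongase of saturated fatty acids, at 0.199 ± 0.0489 FPKM. ELOVL6 had 5 to 27 reads per library and did not reach 1 FPKM in any, so it was not tested. SCD and FASN together made up 34.7%, 46.7% and 35.9% of the members' summed FPKM with the inhibitor, replicate 2 being the highest, and 36.3% to 37.2% in DMSO. With SCD and FASN left out, the members summed to 1324, 1236 and 1330 FPKM with the inhibitor and to 1119, 1115 and 1174 FPKM in DMSO.

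**Figure D2:**
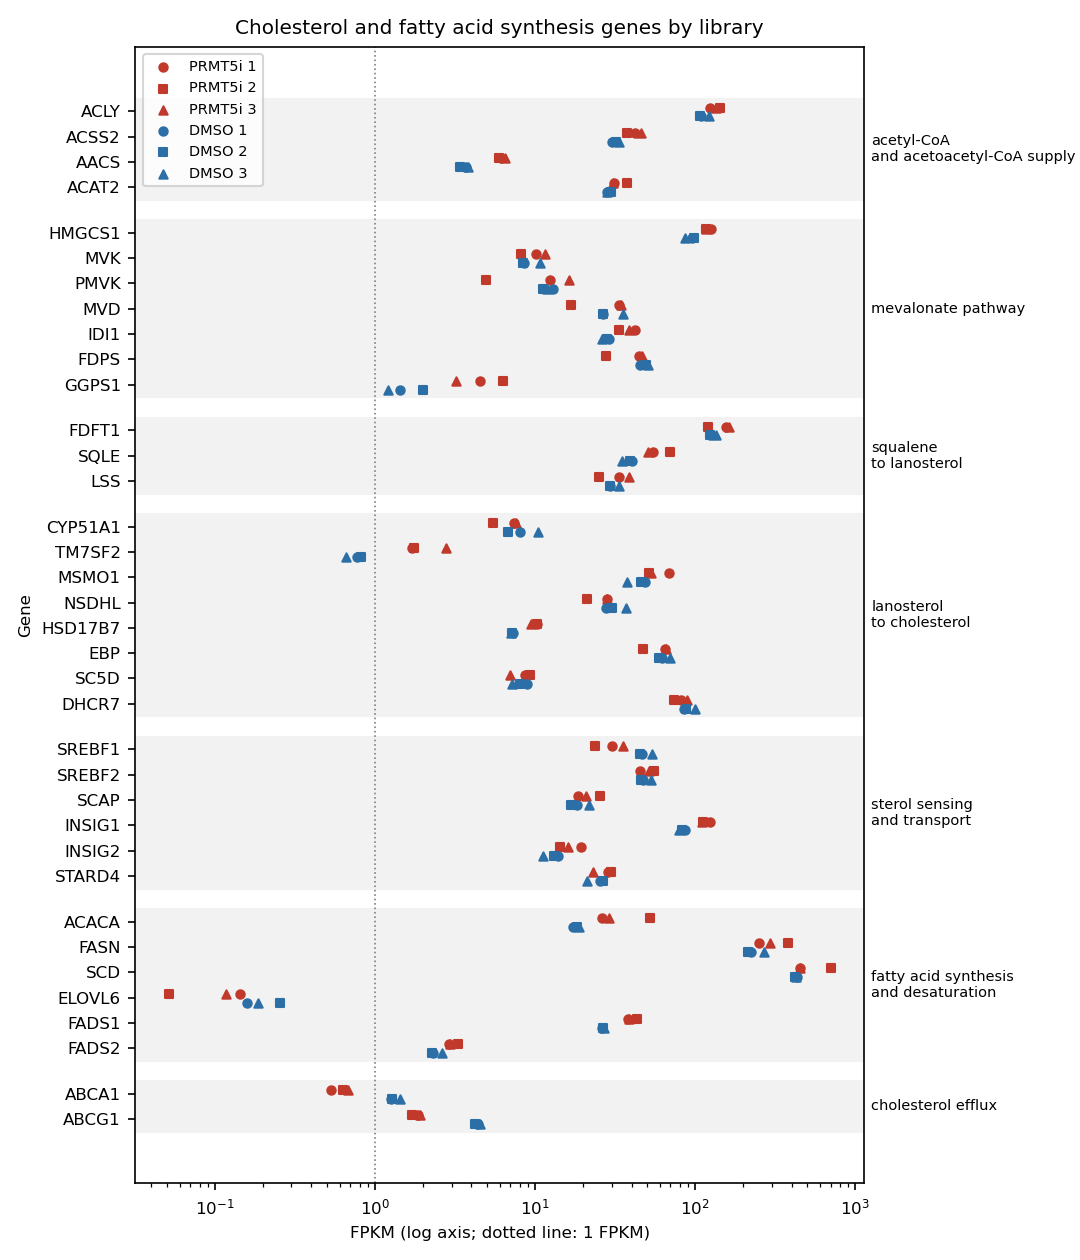
FPKM of each member in each library on a log axis, grouped by pathway step, with inhibitor (PRMT5i, red) and DMSO (blue) libraries and 1 marker shape per replicate. SCD is highest and ELOVL6 lowest; inhibitor replicate 2 (red squares) lies apart from the other inhibitor libraries for PMVK, MVD, ACACA and SCD.

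Among the enzymes that supply the acetyl-CoA and acetoacetyl-CoA units, AACS was called. AACS (ENSG00000081760, chromosome 12, 125065379 to 125143333, hg38), which activates acetoacetate for lipid synthesis, had 6.14, 5.91 and 6.48 FPKM with the inhibitor and 3.67, 3.37 and 3.79 FPKM in DMSO. The groups did not overlap, and the log2 fold change was 0.64 (SE 0.10, adjusted p = 0.0119), or 0.67 without inhibitor replicate 2. AACS was the longest member, at 16094 bases, and lost its call with the gene length trend removed (0.47, adjusted p = 0.101 by limma; its alternatives spanned adjusted p = 0.00219 to 0.101). ACSS2, which makes acetyl-CoA from acetate, had 42.1, 37.3 and 45.6 FPKM with the inhibitor and 30.2, 31.8 and 33.2 FPKM in DMSO. It was not called with all libraries (0.38, adjusted p = 0.0752) but was without inhibitor replicate 2 (0.46, adjusted p = 0.00483). ACLY, which cleaves citrate to acetyl-CoA, stood at 134 ± 10.2 FPKM with the inhibitor and 113 ± 8.38 FPKM in DMSO (SD, n = 3 each), and ACAT2, the cytosolic acetoacetyl-CoA thiolase, at 33.04 ± 3.91 and 28.5 ± 0.961 FPKM. Neither was called in either fit, although the inhibitor libraries were above the DMSO libraries for both. ACAT2 overlaps TCP1 on the other strand, which averaged 42.1 FPKM with the inhibitor and 64.5 FPKM in DMSO, and it is unknown if counting used the strand.

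In the mevalonate pathway the members did not move alike. GGPS1 (ENSG00000152904, chromosome 1, 235327350 to 235344532), which makes the geranylgeranyl group that anchors small GTPases in membranes, had 4.53, 6.28 and 3.204 FPKM with the inhibitor and 1.43, 1.99 and 1.21 FPKM in DMSO. These rest on 199 to 320 reads with the inhibitor and 68 to 111 reads in DMSO. The ratio of the means was 3.03. The log2 fold change of 1.13 (SE 0.23, adjusted p = 0.0222, and 0.94 with inhibitor replicate 2 left out) was the highest of the members. GGPS1 shares bases with ARID4B on the other strand and with TBCE and the pseudogene AL391994.1 on its own, so the assignment of its reads is uncertain. HMGCS1, the synthase that makes HMG-CoA, had 125, 117 and 117 FPKM with the inhibitor and 94.9, 98.3 and 86.6 FPKM in DMSO. IDI1, which isomerises the isoprene unit, had 42.1, 33.2 and 38.5 FPKM with the inhibitor and 28.8, 28.3 and 26.0 FPKM in DMSO. For both the groups did not overlap and the log2 fold changes of 0.36 (adjusted p = 0.0762) and 0.44 (adjusted p = 0.0608) missed the threshold. Both passed without inhibitor replicate 2, at 0.38 (adjusted p = 0.011) and 0.53 (adjusted p = 0.00375).

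The remaining enzymes of the mevalonate pathway had overlapping groups and no call in either fit. MVK, the mevalonate kinase, stood at 9.94 ± 1.7 FPKM with the inhibitor and 9.20 ± 1.32 FPKM in DMSO (SD, n = 3 each). PMVK, the next kinase, had 12.3, 4.903 and 16.3 FPKM with the inhibitor and 12.8, 11.2 and 11.9 FPKM in DMSO, and MVD, the decarboxylase that follows, had 33.2, 16.7 and 34.2 FPKM with the inhibitor and 26.5, 26.4 and 35.1 FPKM in DMSO. For both, inhibitor replicate 2 was the lowest of the 6 libraries, and the sign of the log2 fold change turned without it, at 0.23 for PMVK in place of −0.22 and at 0.20 for MVD in place of −0.12. FDPS, the farnesyl diphosphate synthase, likewise had its lowest value in that library, with 44.4, 27.7 and 46.7 FPKM with the inhibitor and 45.4, 49.2 and 50.5 FPKM in DMSO.

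Of the enzymes that turn farnesyl units into lanosterol, SQLE rose. SQLE (ENSG00000104549, chromosome 8, 124998497 to 125022283), the squalene epoxidase and a rate-limiting step, had 54.8, 70.03 and 50.5 FPKM with the inhibitor and 40.1, 39.1 and 34.6 FPKM in DMSO. The groups did not overlap (0.60 on the log2 scale, SE 0.15, adjusted p = 0.0442, and 0.46 with inhibitor replicate 2 left out). FDFT1, the squalene synthase, had 156, 121 and 162 FPKM with the inhibitor and 124, 124 and 135 FPKM in DMSO. It was called only without inhibitor replicate 2, its lowest library (0.32, adjusted p = 0.0101, in place of 0.19, adjusted p = 0.410). LSS, the lanosterol synthase, stood at 32.4 ± 6.93 FPKM with the inhibitor and 30.7 ± 2.31 FPKM in DMSO (SD, n = 3 each), and its groups overlapped.

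The enzymes that convert lanosterol to cholesterol showed the least common direction, with 2 calls among 8 and a median log2 fold change of −0.04. TM7SF2 (ENSG00000149809, chromosome 11, 65111845 to 65116384), a sterol C14 reductase, had 1.701, 1.75 and 2.77 FPKM with the inhibitor and 0.769, 0.822 and 0.654 FPKM in DMSO, from 80 to 154 reads and 33 to 41 reads. The ratio of the means was 2.77, and the log2 fold change was 0.80 (SE 0.17, adjusted p = 0.0255), and 0.87 without inhibitor replicate 2. Its bases overlap those of VPS51 on the same strand, which averaged 24.8 FPKM with the inhibitor and 27.5 FPKM in DMSO, so its few reads are of uncertain assignment. TM7SF2 passed the filter only through the inhibitor group, where it was high. HSD17B7 (ENSG00000132196, chromosome 1, 162790702 to 162812817), a 3-ketosteroid reductase, had 10.3, 10.3 and 9.43 FPKM with the inhibitor and 7.29, 7.13 and 7.03 FPKM in DMSO (0.43, SE 0.0985, adjusted p = 0.0303; 0.41 without inhibitor replicate 2). The like-named copy HSD17B7P2 averaged 5.03 FPKM with the inhibitor and 3.97 FPKM in DMSO, and how reads were divided between them is not known.

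MSMO1, the C4-methylsterol oxidase, had 68.7, 51.7 and 52.8 FPKM with the inhibitor and 48.3, 45.9 and 37.5 FPKM in DMSO. The groups did not overlap but it was not called (0.38, adjusted p = 0.153; 0.46, adjusted p = 0.0553 without inhibitor replicate 2). The other 5 enzymes of this stretch had overlapping groups and were called in neither fit. CYP51A1, the lanosterol demethylase, stood at 6.80 ± 1.201 FPKM with the inhibitor and 8.39 ± 1.89 FPKM in DMSO, and NSDHL, which removes the C4 carboxyl group, at 25.9 ± 4.14 and 31.6 ± 4.599 FPKM (SD, n = 3 each). EBP, the sterol isomerase, stood at 59.1 ± 10.2 FPKM with the inhibitor and 63.6 ± 5.23 FPKM in DMSO, and SC5D, the C5 desaturase, at 8.31 ± 1.22 and 8.04 ± 0.813 FPKM. DHCR7, the reductase of the last step, stood at 81.6 ± 7.55 FPKM with the inhibitor and 90.7 ± 7.64 FPKM in DMSO.

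Of the genes for the SREBP factors, SREBF1 was called lower and SREBF2 was not called. SREBF1 (ENSG00000072310, chromosome 17, 17810399 to 17837002), whose product favours fatty acid genes, had 30.3, 23.6 and 35.5 FPKM with the inhibitor and 46.4, 45.3 and 53.4 FPKM in DMSO. All inhibitor libraries were below all DMSO libraries (−0.70 on the log2 scale, SE 0.17, adjusted p = 0.0386, and −0.54 with inhibitor replicate 2 left out). SREBF2, whose product favours cholesterol genes, had 44.8, 55.3 and 51.5 FPKM with the inhibitor and 46.8, 45.8 and 52.5 FPKM in DMSO, with overlapping groups (0.06, adjusted p = 0.771; adjusted p = 0.957 without inhibitor replicate 2). In DMSO the genes stood at nearly equal levels: the ratio of SREBF1 to SREBF2 was 0.676, 0.426 and 0.689 in the inhibitor libraries and 0.990, 0.990 and 1.02 in the DMSO libraries. Such a ratio within a library does not depend on the scaling. By an exact two-sided permutation test it gave p = 0.1, the smallest that 3 against 3 libraries allow (adjusted p = 0.133 over 4 ratios, chosen after the values were seen), so a difference between the genes' responses was not established.

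INSIG1 (ENSG00000186480, chromosome 7, 155297776 to 155310235), itself an SREBP target and a retention factor for SCAP, had 123, 112 and 111 FPKM with the inhibitor and 85.8, 82.5 and 79.6 FPKM in DMSO. It rose by 0.47 on the log2 scale (SE 0.11, adjusted p = 0.0332; 0.49 without inhibitor replicate 2). INSIG2, its paralog, had 19.2, 14.3 and 15.98 FPKM with the inhibitor and 13.8, 13.1 and 11.1 FPKM in DMSO and was called only without inhibitor replicate 2 (0.44, adjusted p = 0.0295, in place of 0.35, adjusted p = 0.149). The ratio of INSIG1 to INSIG2 overlapped between the groups, at 6.41 to 7.86 with the inhibitor and 6.21 to 7.15 in DMSO (exact two-sided permutation p = 0.4, adjusted p = 0.4). SCAP, the escort, stood at 21.5 ± 3.42 FPKM with the inhibitor and 18.96 ± 2.61 FPKM in DMSO, and STARD4, which carries cholesterol between membranes, at 27.1 ± 3.59 and 24.3 ± 2.75 FPKM (SD, n = 3 each). Neither was called in either fit.

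In fatty acid synthesis, FADS1 rose. FADS1 (ENSG00000149485, chromosome 11, 61799625 to 61829318), the delta-5 desaturase of polyunsaturated fatty acids, had 38.2, 43.5 and 38.5 FPKM with the inhibitor and 26.2, 26.4 and 26.9 FPKM in DMSO (0.58 on the log2 scale, SE 0.11, adjusted p = 0.0175, and 0.52 with inhibitor replicate 2 left out). Its neighbour FADS2, the delta-6 desaturase, had 2.88, 3.31 and 2.92 FPKM with the inhibitor and 2.29, 2.27 and 2.62 FPKM in DMSO. The groups did not overlap, yet it was called in neither fit (0.25, adjusted p = 0.173). The genes share bases on opposite strands, and FADS2 also overlaps FEN1, so FADS2 reads are the less certain. The ratio of FADS1 to FADS2 was 13.2 to 13.3 with the inhibitor and 10.2 to 11.6 in DMSO. Its exact two-sided permutation p was 0.1, again the smallest possible (adjusted p = 0.133).

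ACACA, the acetyl-CoA carboxylase that commits carbon to fatty acids, had 26.0, 52.05 and 29.1 FPKM with the inhibitor and 17.3, 18.2 and 18.8 FPKM in DMSO. The groups did not overlap, replicate 2 being far the highest. It missed the threshold with all libraries (0.88, SE 0.26, adjusted p = 0.062) and passed without that library at a smaller size (0.58, SE 0.0746, adjusted p = 0.00277). FASN, the fatty acid synthase, had 251, 380.3 and 295 FPKM with the inhibitor and 223, 214 and 269 FPKM in DMSO, and was called in neither fit (0.38, adjusted p = 0.215; 0.22, adjusted p = 0.197 without inhibitor replicate 2). SCD had 453, 704 and 449 FPKM with the inhibitor and 435, 423 and 426 FPKM in DMSO. Its log2 fold change was 0.29 with all libraries and 0.08 without inhibitor replicate 2, with no call in either fit (adjusted p = 0.358 and 0.251). The ratio of ACACA to FASN was 0.103, 0.137 and 0.0986 with the inhibitor and 0.0777, 0.0848 and 0.0699 in DMSO. Its exact two-sided permutation p was 0.1, again the smallest possible (adjusted p = 0.133).

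Both exporters fell. ABCG1 (ENSG00000160179, chromosome 21, 42199689 to 42297244), which passes cholesterol to lipoprotein particles, had 1.84, 1.71 and 1.89 FPKM with the inhibitor and 4.42, 4.23 and 4.502 FPKM in DMSO, from 140 to 189 reads and 379 to 423 reads. The mean with the inhibitor was 0.414 of that in DMSO, and it fell by 0.94 on the log2 scale (SE 0.10, adjusted p = 0.00435, and by 0.91 with inhibitor replicate 2 left out). ABCA1 (ENSG00000165029, chromosome 9, 104781002 to 104928237), which loads cholesterol onto apolipoprotein, had 0.532, 0.625 and 0.675 FPKM with the inhibitor and 1.26, 1.28 and 1.43 FPKM in DMSO, from 95 to 125 reads and 212 to 240 reads. Its mean with the inhibitor was 0.462 of that in DMSO (−0.53 on the log2 scale, SE 0.13, adjusted p = 0.0346, and −0.53 with inhibitor replicate 2 left out). ABCA1 passed the filter only through the DMSO group, where it was high. In both genes inhibitor replicate 2 lay with the other inhibitor libraries.

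**Figure D3:**
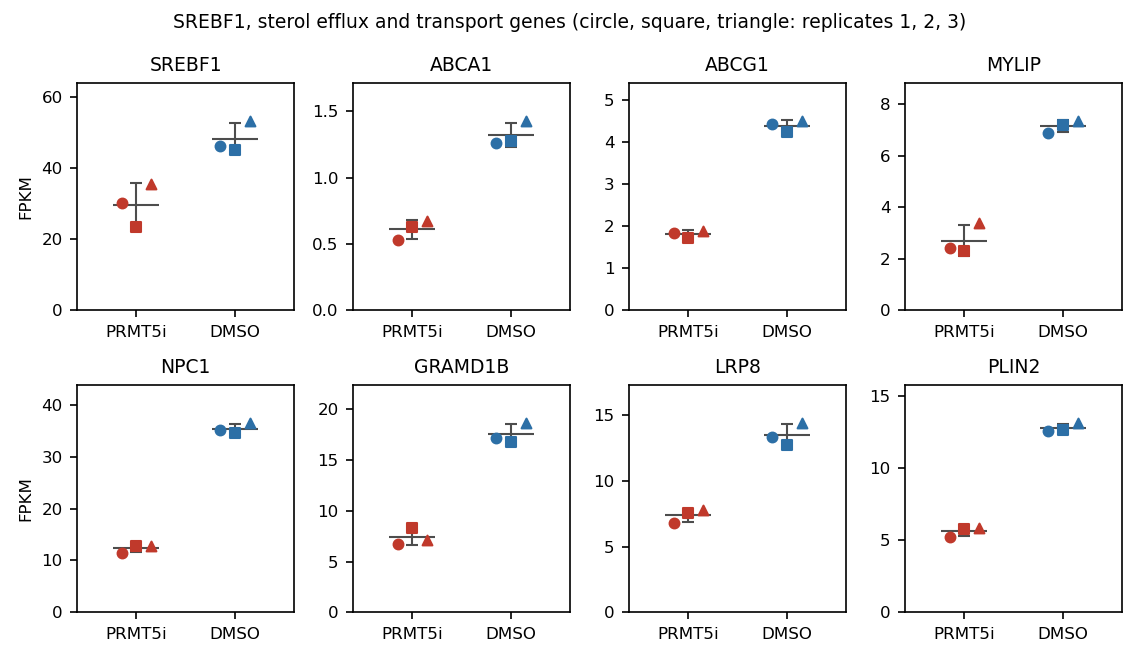
FPKM in each library for SREBF1, the exporters ABCA1 and ABCG1, and 5 genes of sterol and lipid handling, with inhibitor (PRMT5i, red) left of DMSO (blue); circle, square and triangle are replicates 1, 2 and 3, horizontal marks are means and bars SD (n = 3). Only genes called lower are shown, and in every panel all inhibitor libraries lie below all DMSO libraries, as for 26.7% of all genes tested. SOAT1 and TMEM97, which were called higher, are not shown.

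Which library was left out decided many of these calls. Without DMSO replicate 1, 2 or 3, of the 10 called members ABCG1 alone kept its call, the others standing at adjusted p = 0.0711 to 0.135, 0.0633 to 0.144 and 0.0552 to 0.157. The number of all genes called fell in step, to 478, 510 and 579 of the 2339. Without inhibitor replicate 1, AACS and ABCG1 were called (the others at adjusted p = 0.0522 to 0.103), and without inhibitor replicate 3, AACS, ABCG1, FADS1, GGPS1 and SREBF1 (the others at adjusted p = 0.0569 to 0.0762). All 10 kept their sign in each of the 6 fits, a sign that the filter had fixed for TM7SF2 and ABCA1. For all 10 the groups did not overlap, so leaving out a library could not turn the sign. Their log2 fold changes, over all 10, moved by at most 0.20.

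The departure of inhibitor replicate 2 differed between members. On the log2(FPKM + 1) scale it lay furthest below the mean of replicates 1 and 3 for PMVK (−1.36), MVD (−0.97) and FDPS (−0.70), and furthest above for ACACA (0.90), SCD (0.64) and GGPS1 (0.59). Across the 35 members tested the departure and the deposited gene length had a Spearman rho of 0.40, and across all 13578 genes tested one of 0.283, as a description of a single library. PMVK, at 1280 bases, was the shortest member. Genes under 1500 bases took 1.09% of the nuclear coding reads of inhibitor replicate 2 and 2.27% to 2.61% of those of the other libraries. The part of gene length in the members' results was examined by removing its trend from each library: 11 members then rose and 3 fell. ACSS2, HMGCS1, IDI1, INSIG2 and ACACA gained a call, and AACS lost its own.

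**Figure D4:**
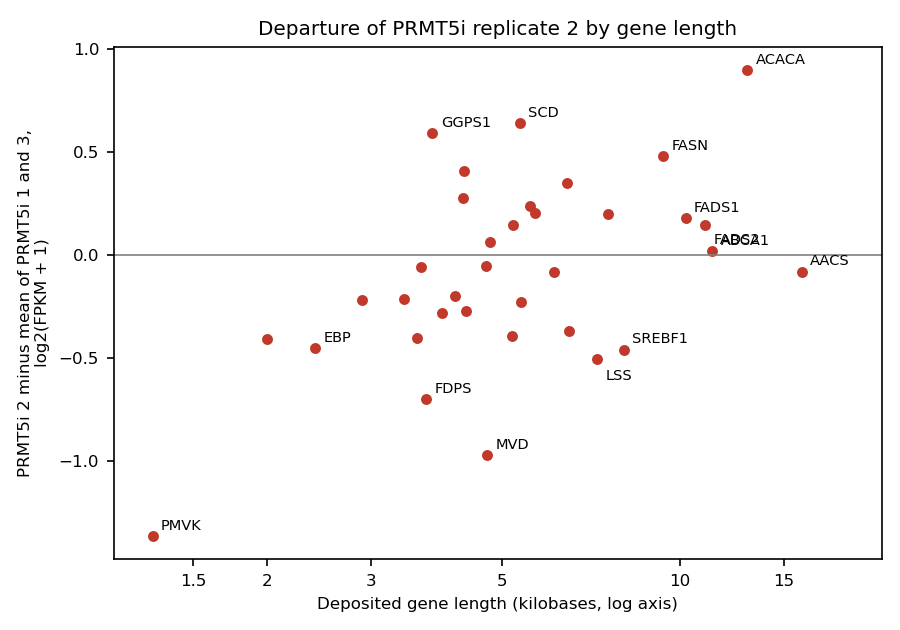
Departure of inhibitor (PRMT5i) replicate 2 from the mean of inhibitor replicates 1 and 3, on the log2(FPKM + 1) scale, against the deposited gene length on a log axis, 1 point per member tested (35). PMVK, the shortest, lies lowest at −1.36 and ACACA, at 13008 bases, highest at 0.90.

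Other genes of lipid metabolism were compared as 6 lists holding 124 genes of the table. Their counts stand beside the shares of all genes tested, of which 7.18% rose and 10.0% fell, or 17.5% and 23.1% without inhibitor replicate 2. Nothing particular to a list was tested. In sterol uptake, transport and esterification, 2 of 13 tested genes rose and 3 fell (3 and 5 without inhibitor replicate 2), with a median log2 fold change of −0.35, or −0.25 without that library. NPC1, which releases cholesterol from lysosomes, had 11.5, 12.8 and 12.7 FPKM with the inhibitor and 35.1, 34.5 and 36.4 FPKM in DMSO (−1.45, SE 0.10, adjusted p = 0.00125; −1.47 without inhibitor replicate 2). GRAMD1B, which moves cholesterol from the plasma membrane to the endoplasmic reticulum, averaged 7.41 ± 0.804 FPKM with the inhibitor and 17.5 ± 0.989 FPKM in DMSO (SD, n = 3 each). It fell by 1.14 on the log2 scale, or by 1.22 without inhibitor replicate 2, and LRP8, a lipoprotein receptor, by 0.79, or by 0.80. SOAT1, which esterifies cholesterol for storage, had 31.0, 55.1 and 27.1 FPKM with the inhibitor and 13.5, 13.3 and 10.8 FPKM in DMSO (1.45, SE 0.27, adjusted p = 0.0178; 1.15 without inhibitor replicate 2). TMEM97, an SREBP target that binds NPC1, rose by 0.92, or by 0.69 without inhibitor replicate 2.

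Among 15 genes of SREBP processing and LXR, 4 fell and none rose (8 fell and 1 rose without inhibitor replicate 2), with a median of −0.21, or −0.28 without that library. MYLIP, an LXR target whose product marks lipoprotein receptors for degradation, had 2.41, 2.32 and 3.38 FPKM with the inhibitor and 6.89, 7.18 and 7.35 FPKM in DMSO (−1.15, SE 0.14, adjusted p = 0.00538; −1.07 without inhibitor replicate 2). The endoplasmic reticulum ubiquitin ligase RNF139 and the haem-binding protein PGRMC1 each fell by 0.48, or by 0.54 and 0.57 without inhibitor replicate 2, and neither was called with the gene length trend removed. C12orf49, which supports cleavage of the SREBP factors and was named after its value was seen, fell by 0.39 with and without that library. Of 14 genes of isoprenoid branches 2 fell and none rose (3 and 0 without inhibitor replicate 2), near the shares of all genes that fell. They were RABGGTB, a subunit of the enzyme that prenylates Rab proteins (−1.05, or −0.80 without inhibitor replicate 2), and RCE1, a protease of prenylated proteins (−1.12, or −0.83).

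Of 25 genes of fatty acid precursors, elongation and activation 4 rose and none fell, although 7 rose and 4 fell without inhibitor replicate 2, those 4 being a smaller share than the 23.1% of all genes that fell. MLXIPL, the glucose-responsive factor ChREBP, had 5.803, 3.48 and 5.73 FPKM with the inhibitor and 1.102, 1.32 and 1.23 FPKM in DMSO (1.41, SE 0.19, adjusted p = 0.00697; 1.61 without inhibitor replicate 2). ACSL1, which activates fatty acids, rose by 0.68, or by 0.65 without inhibitor replicate 2, and ACACB, the mitochondrial carboxylase, which was named after its value was seen, by 0.59, or by 0.50.

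In the lists of lipid storage and oxidation most genes were not called. Of 19 genes of triglyceride and phospholipid synthesis and lipid droplets 4 fell and none rose (7 and 0 without inhibitor replicate 2), with a median of −0.23, or −0.20 without that library. PLIN2, which coats lipid droplets, had 5.24, 5.82 and 5.87 FPKM with the inhibitor and 12.6, 12.6 and 13.1 FPKM in DMSO (−1.05, SE 0.10, adjusted p = 0.00293; −1.07 without inhibitor replicate 2). The choline kinase CHKA fell by 0.75, the phosphoethanolamine enzyme PCYT2 by 0.70 and GPAT4, named after its value was seen, by 0.46. Without inhibitor replicate 2 they fell by 0.84, 0.55 and 0.37. Of 23 genes of fatty acid oxidation 3 rose and none fell (11 and 0 without inhibitor replicate 2), with a median of 0.22, or 0.35 without that library. They were HADHA (0.76, or 0.59 without inhibitor replicate 2), HADH (0.44, or 0.49) and ETFDH (0.54, or 0.57), enzymes of the mitochondrial cycle and its electron transfer. HADH was not called with the gene length trend removed. Each of MYLIP, NPC1, GRAMD1B, MLXIPL and PLIN2 was called without each library in turn, with a highest adjusted p of 0.0193 to 0.0444, whereas the other genes named here from these lists lost their calls without at least 1 library.

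**Figure D5:**
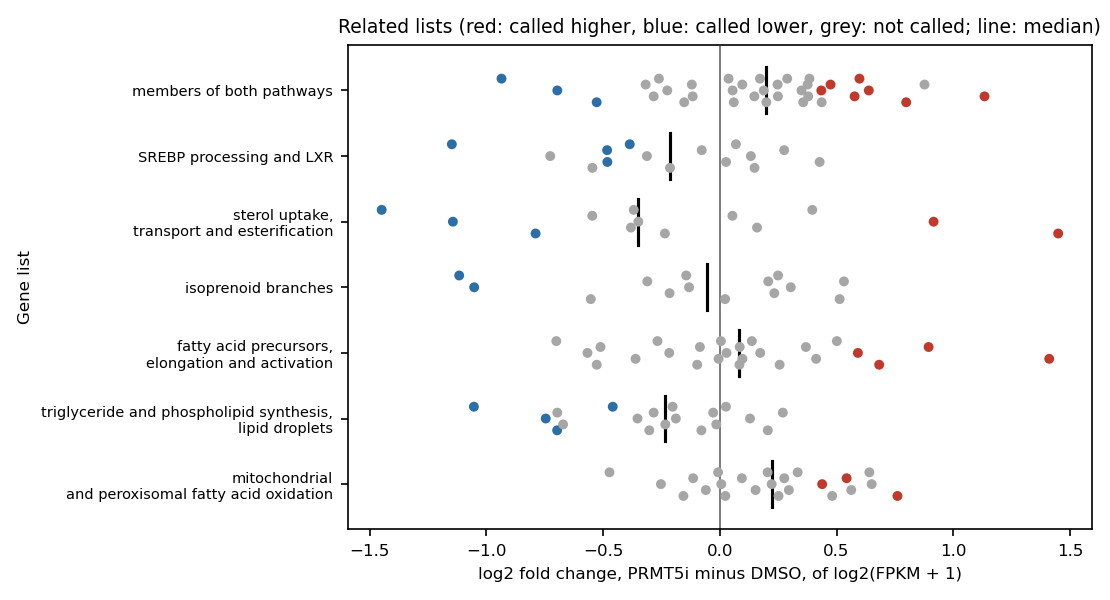
Log2 fold change, inhibitor (PRMT5i) minus DMSO on the log2(FPKM + 1) scale, of every tested gene of the members and of 6 related lists; red points were called higher, blue points lower and grey points not called, and black lines are medians. NPC1 (−1.45) and SOAT1 (1.45), in the same list, are the furthest from 0.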

How the data were processed

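RNA from 6 libraries was sequenced, 3 with the PRMT5 inhibitor and 3 with DMSO, grouped by their labels. Per the labels' protocols, total RNA went into a strand-specific kit. The authors deposited 1 FPKM value per gene and library together with the gene length. The submitters' processing notes name hg38. The aligner, counter, annotation and strand setting were not stated in the sources used. FPKM times gene length gave whole reads within 0.01 reads for all values above 0, which set the depth of 14087260 to 15724750 reads. How precise a low value is follows from its reads.

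The 13578 genes that reached 1 FPKM in at least 3 libraries were tested with limma 3.58.1 in R 4.3.3 on log2(FPKM + 1) with a mean-variance trend, inhibitor minus DMSO, two-sided, with Benjamini-Hochberg adjustment over all of them and a threshold of 0.05. The same genes were fitted without inhibitor replicate 2. No test was run over a list. Since separate cultures are not stated, the p-values cover the spread among these libraries alone, which may be technical. The fit was also run on simulated reads. These held no outlying library and no gene length trend, so that run does not cover those features of the data. Tables and figures used Python 3.11.15, pandas 2.3.3, numpy 2.4.6, scipy 1.17.1 and matplotlib 3.10.9. Promoters and microRNAs came from RefSeq (GRCh38.p14), matched by symbol, for 31 of the 36 members; 4 motifs were searched on both strands in the 250 bases before the start.

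The members, lists and tests were chosen with earlier results of these data known. The genes named were all 36 members, PRMT5, and from each related list up to 3 called genes in each direction with the smallest adjusted p; the others are said to be named after their values were seen. A gene that this rule names is not reported here. Alternatives were other pseudocounts (0.1 and 0.5), filters, scalings, limma settings, limma-voom on the recovered reads, removal of the gene length trend, a replicate block and leaving out each library.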

Additional observations from a re-analysis of the deposited data

How the results depend on the processing

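Across all alternatives 506 of the members' single values kept their direction and side of the threshold, 56 lost a call (9 genes), 15 gained one (6 genes) and 13 turned sign (8 genes). The 7 members called higher became 11 with the gene length trend removed, 3 with no filter, 3 with the replicate block and 0 to 13 when 1 library was left out; the 3 called lower became 1 with the filter at 5 FPKM, 1 with no filter and 1 to 3 when 1 library was left out. At 5 FPKM ABCA1 and ABCG1 were not tested. The 2339 genes called became 1505 with the filter at 5 FPKM, 1533 with no filter, 1478 with the replicate block and 478 to 5513 when 1 library was left out; the 5513 called without inhibitor replicate 2 became 3198 to 5495 when a further library was left out. The members' median of 0.20 was 0.35 under quantile normalization. Genes that turned sign were not called: under quantile normalization MVD (0.034), EBP (0.064) and DHCR7 (0.041), with the length trend removed EBP (0.046), and, when 1 library was left out, MVK (−0.0082 to 0.22), PMVK (−0.55 to 0.23), MVD (−0.29 to 0.20), LSS (−0.083 to 0.22), EBP (−0.20 to 0.034), SC5D (−0.042 to 0.15) and SREBF2 (−0.0069 to 0.14). ACACA was called by limma-voom, and ACSS2, HMGCS1, IDI1, INSIG2 and ACACA with the length trend removed, where AACS lost its call. The replicate block stands here alone because the numbers share no stated source: same-numbered libraries' deviations correlated at −0.018, 0.16 and 0.25. The causes were not tested. Genes with few reads, such as TM7SF2, GGPS1 and ABCA1, are those whose values depth limits most.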
